A study of Mus musculus with 24 samples.

Results

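Wnt and beta-catenin target genes were examined in mouse embryonic stem cells that express wild-type or mutant CTCF. The 9 genes, chosen by symbol as known targets of the pathway, were Sp5, Cdx1, Lef1, Tcf7, Dkk1, Axin2, Nkd1, Rnf43 and Znrf3, out of 55291 gene symbols in the tables. All 9 were found, and all 9 passed the filter on low values (a mean of at least 10 normalized counts). A further 107 genes of the pathway, from ligands to nuclear partners, were listed beside them, of which 90 passed that filter.

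The cells are of the E14Tg2a line, in which endogenous CTCF carries an auxin-inducible degron, and every clone derives from that line. Indole-3-acetic acid (IAA, 500 µM) triggers loss of the tagged protein and doxycycline (1 µg/ml) switches on a Ctcf transgene, each given for 2 days. The line with the wild-type (WT) transgene was left untreated (WT UN), given IAA alone (WT IAA) or given IAA and doxycycline (WT ID). Lines whose transgene carries R339Q, R342C, S354F, K365T, R377C, R377H, Q418R, R448Q or H455R were given IAA and doxycycline (R339Q ID and so on), and each of the 12 groups had 2 libraries. All groups, WT UN included, grew in serum with leukemia inhibitory factor, the MEK inhibitor PD0325901 (1 µM) and CHIR99021 (3 µM), an inhibitor of GSK3 that activates beta-catenin. A drug that activates the pathway was thus present in every group, and no group lacked it. Each substitution was measured in its own line, so the substitution and the line cannot be told apart. Whether the 2 libraries of a group came from separate cultures is not stated in the labels. The p-values then reflect only how far paired libraries lie apart, and that spread may be technical.

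In the canonical Wnt pathway a ligand binds a Frizzled receptor and an LRP co-receptor, which stops the destruction complex of Axin, APC and GSK3 from marking beta-catenin for breakdown. Beta-catenin then enters the nucleus and joins TCF/LEF factors at target genes. Many targets encode proteins that act back on the pathway: Dkk1 binds the co-receptor, Rnf43 and Znrf3 clear the receptor from the cell surface, Nkd1 acts on Dishevelled, and Axin2 rebuilds the destruction complex. In embryonic stem cells, GSK3 inhibition supports self-renewal, largely through relief of repression by Tcf7l1.

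The libraries held 27.8 to 77.1 M recovered reads (M, the usual sequencing unit). All 6 embryonic stem cell markers, Pou5f1 and Sox2 among them, had a mean above 1 TPM in every group. TPM is a level scaled for gene length and library total. The summed level of these 6 markers was 5960 to 8473 TPM over the libraries. Summed levels of 6 markers each were 15.0 to 37.9 TPM for mesendoderm, 2.54 to 22.1 TPM for primitive endoderm, 84.2 to 236 TPM for trophectoderm and 28.1 to 73.3 TPM for neural ectoderm. In these bulk libraries, a change in the share of cells of a type and a change in RNA per cell cannot be told apart. Ctcf RNA does not report the degraded protein: it was 160 and 155 TPM in WT ID, 145 and 141 TPM in WT IAA and 126 and 125 TPM in WT UN. It was highest in R448Q ID (278 and 284 TPM) and H455R ID (261 and 270 TPM).

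Promoter letters are shown for the 3 genes that held a searched motif in the window at the start of the gene. RefSeq promoter windows (GRCm38.p6) run from 250 bases before to 50 after a gene's start, and 7 of the 9 genes had at least 1, 12 windows in all; Cdx1 and Znrf3 are named only. The TCF/LEF motif was searched as TTCAAAG or ATCAAAG and the CTCF motif as a core pattern (CC, any 4 bases, GG, any 1 base, GGC), both on both strands, with no overlap between the matches below. Of all 32851 windows 8.65% held the first and 11.1% the second. Capitals mark the match, read 5′ to 3′ on the gene's strand. The Sp5 match begins 104 bases before the start, the Dkk1 match 117 bases before and the Axin2 match 128 bases before. The sequences are 250 bases of Sp5 (chr2:70474673-70474922, plus strand), 30 bases of Dkk1 (chr19:30549595-30549624, minus strand) and 250 bases of Axin2 (chr11:108920099-108920348, plus strand). The Dkk1 bases lie inside the gene as GENCODE M21 draws it, because its 5′ end is placed further out there than in RefSeq.
Sp5, TCF/LEF motif in capitals: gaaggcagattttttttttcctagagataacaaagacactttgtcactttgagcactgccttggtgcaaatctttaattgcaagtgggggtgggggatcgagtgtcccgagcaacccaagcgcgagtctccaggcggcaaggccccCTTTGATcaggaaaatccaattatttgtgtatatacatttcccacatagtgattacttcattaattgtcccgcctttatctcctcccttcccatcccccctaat
Dkk1, TCF/LEF motif in capitals: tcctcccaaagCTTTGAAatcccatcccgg
Axin2, CTCF motif in capitals: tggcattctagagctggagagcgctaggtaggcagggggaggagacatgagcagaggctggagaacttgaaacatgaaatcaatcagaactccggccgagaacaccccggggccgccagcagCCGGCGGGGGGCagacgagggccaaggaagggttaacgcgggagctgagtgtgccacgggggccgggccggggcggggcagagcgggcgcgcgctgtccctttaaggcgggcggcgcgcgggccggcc
One of the Lef1 windows, at a start site inside the gene, also held the CTCF motif, and the windows of Nkd1, Tcf7 and Rnf43 held neither. A match is a description of these letters, and occupancy by either factor was not measured here.

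Untreated cells were set beside the treated WT line in TPM. Dkk1 lay at 0.542 and 0.235 TPM in WT UN, at 25.9 and 23.1 TPM in WT ID and at 67.6 and 75.4 TPM in WT IAA. On mean TPM + 0.1, WT ID was 50.3-fold and WT IAA 147-fold above WT UN, and on mean TPM + 1 they were 18.4-fold and 52.2-fold above it. The untreated Dkk1 values rest on 13 and 7 reads, so the fold depends on the value added. Sp5 was 10.1 and 11.3 TPM in WT UN, 53.9 and 61.0 TPM in WT ID and 88.5 and 96.2 TPM in WT IAA. Both genes were thus low in untreated cells, intermediate with the WT transgene on and highest after IAA alone, and the 3 groups did not overlap for either.

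Axin2 differed less across these groups, with 37.2 and 39.2 TPM in WT UN, 82.5 and 79.1 TPM in WT ID and 83.7 and 81.6 TPM in WT IAA. Cdx1 lay at 85.0 and 97.4 TPM in WT UN, 232 and 235 TPM in WT ID and 212 and 210 TPM in WT IAA. For these 2 genes the untreated libraries stood apart and the 2 treated groups lay close together. Mean TPM in WT UN, WT ID and WT IAA was 0.469, 1.31 and 0.795 for Rnf43, 1.22, 2.25 and 3.25 for Nkd1, and 15.4, 20.7 and 23.7 for Znrf3. It was 1.09, 1.36 and 2.67 for Lef1 and 83.2, 90.4 and 102 for Tcf7, with WT UN and WT ID libraries of both overlapping.

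Mean TPM of all 9 genes was lower in WT UN than in WT ID and than in WT IAA, but for Tcf7 the log2 ratio of WT UN to WT ID was −0.12 in TPM and 0.05 when recovered reads were scaled by edgeR. In TPM, Sp5, Dkk1, Axin2, Nkd1, Cdx1 and Znrf3 were lower in both untreated libraries than in all 22 treated libraries. How many of all tested genes were so was not counted. In normalized counts, scaled in separate tables, Znrf3 was 1719 and 1743 in WT UN and 1691 in R342C ID replicate 2. Sp5, Dkk1, Axin2, Cdx1 and Rnf43, 5 of the 9, were at least 2-fold below WT ID with no overlap, against 10.2% of all tested genes. Against WT IAA 6 of the 9 were (Lef1 and Nkd1 in place of Rnf43), beside 13.4% of all tested genes. Both counts depend on the setting. On mean TPM + 1, WT ID was 1.57-fold above WT UN for Rnf43, and WT IAA was 1.76-fold above it for Lef1 and 1.91-fold for Nkd1. With recovered reads scaled by edgeR, the Axin2 log2 ratio was −0.91 for WT UN to WT ID and −0.94 for WT UN to WT IAA. The median log2 ratio of WT UN to WT ID was −1.08 over the 9 genes and −0.19 over all tested genes. Summed markers of primitive endoderm, mesendoderm and trophectoderm were lower in WT UN too, but those of neural ectoderm were not, and those of embryonic stem cells were higher. Embryonic stem cell markers summed to 8392.5 to 8473 TPM in WT UN, 7129 to 7331 TPM in WT ID and 6025 to 6343 TPM in WT IAA. Neural ectoderm markers summed to 52.5 to 55.9 TPM in WT UN, 53.8 to 55.2 TPM in WT ID and 50.2 to 58.9 TPM in WT IAA. Summed primitive endoderm markers were 2.54 to 4.16 TPM in WT UN, 9.04 to 12.1 TPM in WT ID and 18.2 to 18.3 TPM in WT IAA. Summed mesendoderm markers were 16.0 to 21.5 TPM in WT UN and 31.4 to 36.1 TPM in WT ID, and trophectoderm markers 84.2 to 90.0 TPM and 124 to 140 TPM. The part of these markers' cell types in the Wnt values was not tested. The untreated libraries were scaled in a table of their own and no test was made across the tables. No group received doxycycline alone and every other group received IAA, so the agents and the loss of CTCF cannot be told apart here.

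**Figure D1:**
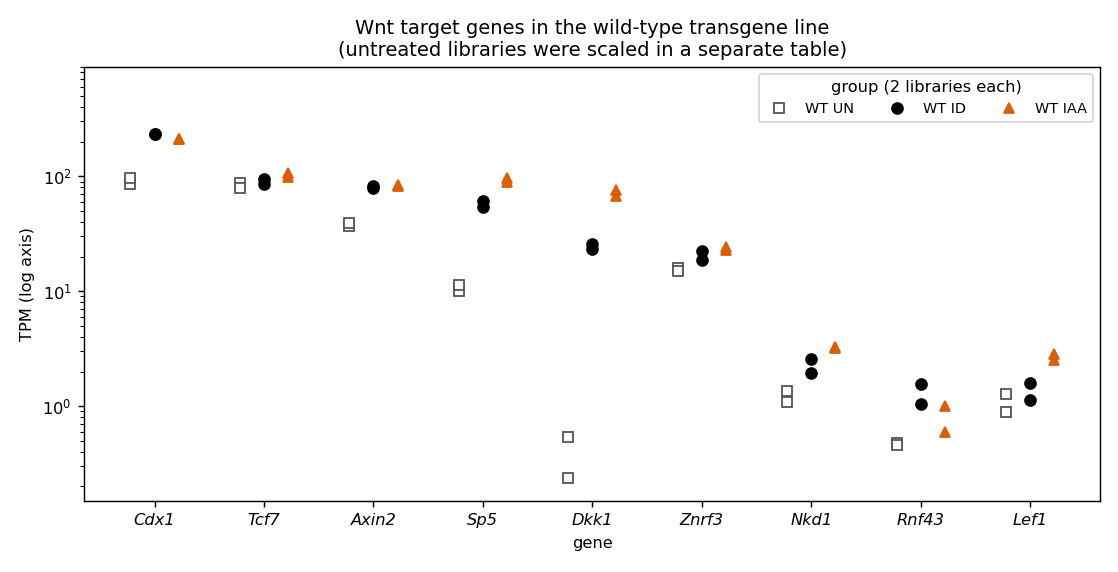
TPM (log axis) of each gene in the 2 libraries of WT UN (open squares), WT ID (filled circles) and WT IAA (triangles). Dkk1 spans the widest range, from 0.235 to 75.4 TPM, and Lef1 and Tcf7 libraries of WT UN and WT ID overlap.

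In the 22 treated libraries, the 9 genes were tested in 10 comparisons with WT ID with limma, and a gene was called at an adjusted p under 0.05. Of the 90 tests 42 were called, 27 higher and 15 lower. That is 46.7%, where 23.4% of the same tests over all genes were called. The 9 genes were chosen with earlier results of these data known, so the 2 shares are not an independent comparison. Sp5, Dkk1, Axin2, Tcf7, Rnf43 and Znrf3, 6 of the 9, were called higher in some groups and lower in others, as were 20.3% of all tested genes. Nkd1 and Lef1 were called only higher in these comparisons and Cdx1 only lower. The 9 mutant lines differed among themselves in all 9 genes by limma's F test, where 76.0% of all tested genes did. The comparisons with WT ID share its 2 libraries, so values for different groups are given side by side.

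**Figure D2:**
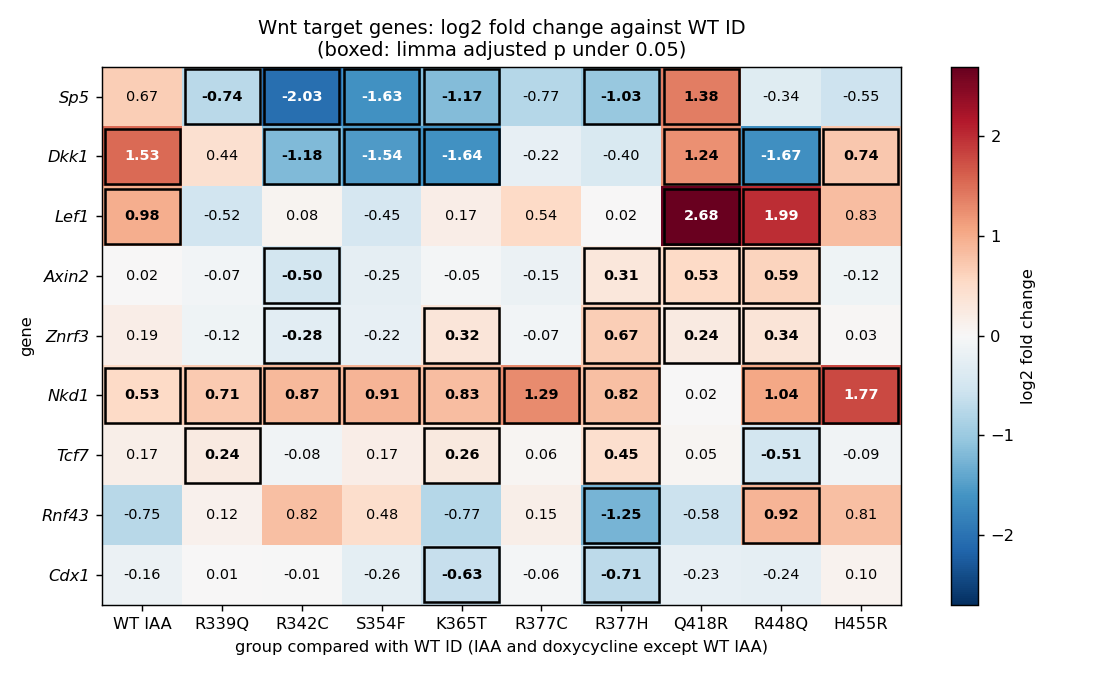
Log2 fold change against WT ID for the 9 genes (rows) in WT IAA and the 9 mutant lines (columns), with red higher, blue lower and a box where the limma adjusted p was under 0.05. Nkd1 is boxed as higher in every column except Q418R, whereas Sp5 and Dkk1 hold boxes of both signs.

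Among groups, the count of called genes was read against the share of all 18713 tested genes called in the same comparison. In WT IAA, 3 of the 9 were called, all higher, beside 20.7% of all tested genes, with a median log2 fold change of 0.19 for the 9 and 0.00 for all. R377C had 1 called, beside 8.09%, and H455R had 2, beside 23.1%. S354F had 3, beside 9.80%. R339Q had 3, beside 21.5%, but leaving out any 1 of its 4 libraries (R339Q or WT ID, replicate 1 or 2) left 0 or 1 called, and TPM or no filter on low counts left 1. In these 4 lines the called genes always included Nkd1.

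More of the 9 genes were called in the other lines. R342C had 5 called, 1 higher and 4 lower, beside 23.3%. Q418R had 5 called, all higher, beside 25.0%. K365T had 6 called, 3 in each direction, beside 32.0%. R377H had 7 called, 4 higher and 3 lower, beside 25.1%, and R448Q had 7, 5 higher and 2 lower, beside 45.8%. Q418R was the 1 mutant line with 5 increases and no decrease, and its median over the 9 genes was 0.24, against 0.00 over all tested genes. R342C, K365T, R377H and R448Q, by contrast, had called genes of both directions and medians of −0.08 in R342C, −0.05 in K365T, 0.02 in R377H and 0.34 in R448Q, against −0.03 to −0.01 over all tested genes.

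Sp5, a zinc finger transcription factor of the Sp family and a direct beta-catenin target, is at mm10 chr2:70474923-70477729, the gene whose promoter TCF/LEF match is shown above. It was measured at 1455 and 1769 normalized counts in WT ID and 2433 and 2679 in WT IAA. In Q418R ID it was 3994 and 4375, and in the other 8 mutant lines it ran from 344 (R342C ID) to 1753 (R448Q ID). Both Q418R libraries lay above every other library, whereas 15 of the 16 libraries of the other 8 lines lay below both WT ID libraries and the remaining one, in R448Q, lay between them. Sp5 rose in Q418R by a log2 fold change of 1.38 ± 0.24 (SE; limma adjusted p = 0.000315), or 2.60-fold.

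Against WT ID, Sp5 fell in 5 lines. It was lower by 4.07-fold in R342C (log2 fold change −2.03 ± 0.24, limma adjusted p = 1.41e-05) and by 3.09-fold in S354F (−1.63 ± 0.24, adjusted p = 0.000205). It was lower by 2.25-fold in K365T (−1.17 ± 0.24, adjusted p = 0.00109), where libraries held 744 and 683. Of the 5 decreases these 3 kept their call when any 1 library was left out. The other decreases were −1.03 ± 0.24 in R377H, with an adjusted p of 0.0644 without R377H replicate 2, and −0.74 ± 0.24 in R339Q. The R339Q call was lost when any of its 4 libraries was left out, with adjusted p from 0.0643 to 0.231. In R377C (−0.77 ± 0.24, adjusted p = 0.0583), H455R (−0.55 ± 0.24) and R448Q (−0.34 ± 0.24) it did not pass, nor in WT IAA (0.67 ± 0.24, adjusted p = 0.058).

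Cdx1 encodes a caudal homeobox factor of posterior patterning and lies on mm10 chr18:61018862-61036199. It was 5212 and 5666 normalized counts in WT ID, 3543 and 3482 in K365T ID and 3213 and 3447 in R377H ID. The libraries of both lines lay below all other 18 treated libraries. Cdx1 fell in R377H by 0.71 on the log2 scale (SE 0.11, limma adjusted p = 5.14e-05) and in K365T by 0.63 (SE 0.11, adjusted p = 0.000169), and both calls held whichever library was left out. In the other 8 comparisons it did not pass, with log2 fold changes of −0.26 to 0.10. R342C ID had the widest spread between replicates, 6380 and 4588.

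Lef1 and Tcf7 encode TCF/LEF factors, the DNA-binding partners of beta-catenin, and both are targets as well. Lef1 (mm10 chr3:131110471-131224356) was 180 and 136 normalized counts in WT ID, 1098 and 926 in Q418R ID and 526 and 740 in R448Q ID. In WT IAA it was 288 and 332, and in the remaining 7 mutant lines it ran from 87.2 to 345. Lef1 was thus low in most groups and stood apart in Q418R, then R448Q, neither of which overlapped any other group. It rose 6.40-fold in Q418R (log2 fold change 2.68 ± 0.30, limma adjusted p = 2.19e-06) and 3.96-fold in R448Q (1.99 ± 0.30, adjusted p = 1.74e-05).

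The increase of Lef1 in WT IAA (0.98 ± 0.30, limma adjusted p = 0.0255) passed with all libraries. It was lost without WT IAA replicate 1 (adjusted p = 0.0638), without WT IAA replicate 2 (0.16) and without WT ID replicate 2 (0.193). In H455R the value was 0.83 ± 0.30 (adjusted p = 0.0513). Chromosome 3 as a whole was higher in R448Q, with a median of 0.44, and centred on it the Lef1 value there was 1.55, still called. In Q418R the chromosome median was 0.04. By mean TPM the order was Q418R (8.14), R448Q (4.82), WT IAA (2.67) and H455R (2.47), and from WT IAA downward each group overlapped the next.

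Tcf7 (mm10 chr11:52252371-52283014) varied less. It was 3660 and 3598 normalized counts in WT ID, 4709 and 5247 in R377H ID and 2503 and 2611 in R448Q ID, the lowest of the 22 treated libraries. It fell in R448Q by 0.51 on the log2 scale (SE 0.07, limma adjusted p = 1.55e-05) and rose in R377H (0.45 ± 0.07), K365T (0.26 ± 0.07) and R339Q (0.24 ± 0.07). The R448Q decrease held in every setting tried, whereas these 3 increases did not (the chromosome 11 values are given below). The R339Q call was also lost when any of its 4 libraries was left out, with adjusted p from 0.093 to 0.149. Reads of the A630014C17Rik gene on the opposite strand came to 3.91 to 16.7 normalized counts.

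Dkk1 encodes a secreted inhibitor that binds the Wnt co-receptor LRP6 and lies at mm10 chr19:30545863-30549665. It was 808 and 773 normalized counts in WT ID and 2149 and 2426 in WT IAA. In the mutant lines it was highest in Q418R ID (1609 and 2157), followed by H455R ID (1311 and 1323) and R339Q ID (1049 and 1095). It was lowest in R448Q ID (189 and 327), K365T ID (273 and 236), S354F ID (220 and 336) and R342C ID (322 and 374). No mutant library fell between the 2 WT ID libraries: 7 of 18 were above both and 11 below both. WT IAA had the highest mean, and Q418R replicate 2 exceeded WT IAA replicate 1 by a few normalized counts.

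Dkk1 rose 2.89-fold in WT IAA (log2 fold change 1.53 ± 0.23, limma adjusted p = 0.000147) and 2.36-fold in Q418R (1.24 ± 0.23, adjusted p = 0.000553). It fell 3.17-fold in R448Q (−1.67 ± 0.23, adjusted p = 7.30e-06), 3.11-fold in K365T (−1.64 ± 0.23), 2.90-fold in S354F (−1.54 ± 0.23) and 2.27-fold in R342C (−1.18 ± 0.23). All 6 of these calls held when any 1 library was left out. The increase in H455R (0.74 ± 0.23, adjusted p = 0.0266) was lost without any 1 of the 4 libraries, with adjusted p from 0.0925 to 0.12. R339Q (0.44 ± 0.23), R377C (−0.22 ± 0.23) and R377H (−0.40 ± 0.23) did not pass. Dkk1 and Sp5 were both called, in the same direction, in Q418R, R342C, S354F and K365T. In R448Q (Sp5 −0.34), H455R (Sp5 −0.55) and WT IAA (Sp5 0.67) Dkk1 alone was called, and in R377H and R339Q Sp5 alone. In H455R and R339Q the fitted values of the pair had opposite signs.

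**Figure D3:**
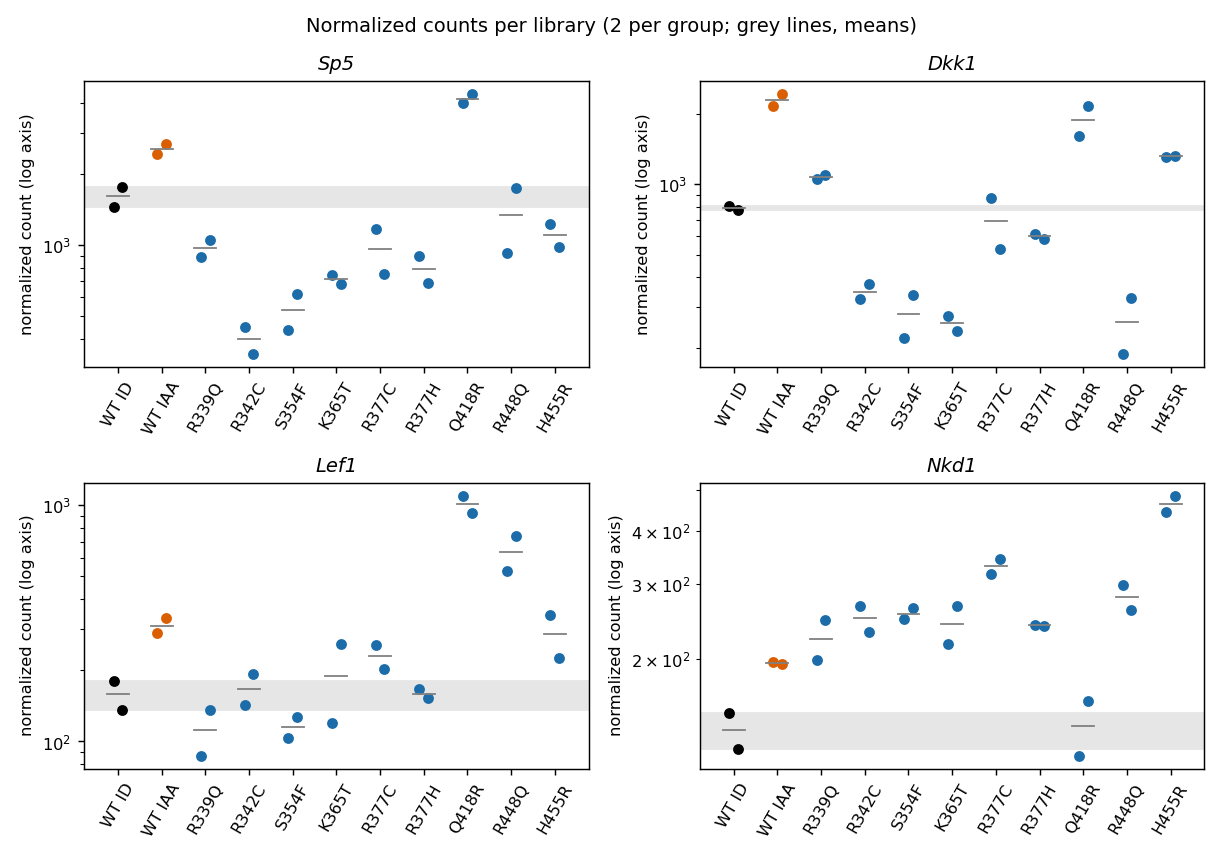
Normalized counts (log axis) of Sp5, Dkk1, Lef1 and Nkd1 in each of 2 libraries per group, with grey lines at group means and a grey band from the lower to the higher WT ID library. Q418R is high in Sp5, Dkk1 and Lef1 and near WT ID in Nkd1, and the other 8 mutant lines lie above the WT ID band in Nkd1.

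Nkd1 encodes a cytoplasmic antagonist that binds Dishevelled and lies at mm10 chr8:88521354-88594884. It was 149 and 122 normalized counts in WT ID and 118 and 159 in Q418R ID. In the other 8 mutant lines it ran from 199 (R339Q ID) to 485 (H455R ID), and in WT IAA it was 197 and 194. All 16 libraries of these 8 lines exceeded both WT ID libraries, while the 2 Q418R libraries straddled them. Nkd1 was called higher in WT IAA and in 8 of 9 mutant lines.

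The increase of Nkd1 was 3.42-fold in H455R (log2 fold change 1.77 ± 0.17, limma adjusted p = 4.86e-07), 2.44-fold in R377C (1.29 ± 0.17) and 2.06-fold in R448Q (1.04 ± 0.17). In S354F (0.91), R342C (0.87), K365T (0.83), R377H (0.82) and R339Q (0.71), each ± 0.17, it was smaller. In Q418R the value was 0.02 ± 0.17. The WT IAA call (0.53 ± 0.17, adjusted p = 0.0307) was lost without WT IAA replicate 1 (0.114), WT IAA replicate 2 (0.122) or WT ID replicate 2 (0.252). The R339Q call was lost without R339Q replicate 2 (0.0744) or WT ID replicate 2 (0.0739).

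Chromosome 8 was higher as a whole in H455R, R448Q and K365T, with median log2 fold changes of 0.46, 0.44 and 0.19. Centred on the median of the 100 nearest genes, Nkd1 in R448Q was 0.46 (limma adjusted p = 0.0342) and in K365T 0.58 (adjusted p = 0.0143), so both stayed called. In H455R it was 1.18 and stayed called as well. By mean TPM the treated groups ran from H455R (7.82) and R377C (5.50), which did not overlap each other or the rest, to WT ID (2.25) and Q418R (2.13), which overlapped.

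Axin2 encodes a scaffold of the destruction complex, and its promoter holds the CTCF motif shown above. It lies at mm10 chr11:108920349-108950783, was 5837 and 6010 normalized counts in WT ID and ranged from 4106 (R342C ID) to 9690 (R448Q ID) over the 22 treated libraries. Q418R ID held 8382 and 8705, R448Q ID 8216 and 9690 and R377H ID 7309 and 7391, all above WT ID. It rose in R448Q (log2 fold change 0.59 ± 0.09, limma adjusted p = 1.44e-05), Q418R (0.53 ± 0.09, adjusted p = 0.000163) and R377H (0.31 ± 0.09, adjusted p = 0.012), and it fell in R342C by 0.50 (SE 0.09, adjusted p = 0.000543). The Q418R and R342C calls held in every setting tried. Axin2 was lost in R377H without R377H replicate 1 (adjusted p = 0.0504), R377H replicate 2 (0.0706) or WT ID replicate 1 (0.0829).

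Rnf43 and Znrf3 encode membrane ubiquitin ligases that remove Frizzled receptors. Rnf43 (mm10 chr11:87662722-87735539) was low, from 39.1 to 227 normalized counts. WT ID held 132 and 95.3, R377H ID 55.4 and 39.1 and R448Q ID 202 and 227, so the 2 lines lay on opposite sides of WT ID with no overlap. It fell in R377H by 1.25 on the log2 scale (SE 0.31, limma adjusted p = 0.0057) and rose in R448Q (0.92 ± 0.31, adjusted p = 0.0213). The R377H call was lost without R377H replicate 2 (adjusted p = 0.0842) or WT ID replicate 1 (0.0823). The R448Q call was lost without R448Q replicate 1 (0.0533), R448Q replicate 2 (0.108) or WT ID replicate 2 (0.174).

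Znrf3 (mm10 chr11:5276324-5444847) was 2284 and 2054 normalized counts in WT ID and 3358 and 3561 in R377H ID, the highest of all. R342C ID, with 1891 and 1691, held the lowest library. It rose in R377H (log2 fold change 0.67 ± 0.09, limma adjusted p = 7.04e-06), R448Q (0.34 ± 0.09), K365T (0.32 ± 0.09) and Q418R (0.24 ± 0.09) and fell in R342C by 0.28 (SE 0.09). The R377H call held whichever library was left out, and the other 4 did not. Without WT ID replicate 2 the adjusted p was 0.0519 in R448Q, 0.0971 in K365T and 0.33 in Q418R, and without WT ID replicate 1 it was 0.216 in R342C.

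Further libraries decided these Znrf3 calls. Without K365T replicate 1 the limma adjusted p was 0.105, without Q418R replicate 1 it was 0.125, without Q418R replicate 2 it was 0.149, and without R342C replicate 2 it was 0.176. Tcf7 in K365T was lost likewise, without K365T replicate 2 (0.112), WT ID replicate 1 (0.0516) or WT ID replicate 2 (0.0754).

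Tcf7, Axin2, Rnf43 and Znrf3, 4 of the 9 genes, lie on chromosome 11, which shifted as a whole in some lines. Its median log2 fold change against WT ID was 0.54 in R377H, 0.37 in K365T and 0.14 in R448Q, and within ± 0.09 in the other mutant lines. After centring on that median, R377H values were −0.08 for Tcf7, −0.23 for Axin2 and 0.14 for Znrf3, and all 3 calls ended. Rnf43, which had fallen there against the direction of the chromosome, became −1.79 and stayed called.

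In K365T the centred values were −0.11 for Tcf7 and −0.04 for Znrf3, and both calls ended. There Axin2 (−0.42) and Rnf43 (−1.13) became called as lower. In R448Q, centring on the 100 nearest genes gave 0.10 for Axin2, −0.12 for Znrf3 and 0.53 for Rnf43, none of them called, and −0.33 for Tcf7, still called. In R339Q the centred Tcf7 value was 0.15 and not called. Copy number was not measured, and its part in these shifts was not tested. Q418R had a chromosome 11 median of −0.01, so the Axin2 value there hardly moved.

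**Figure D4:**
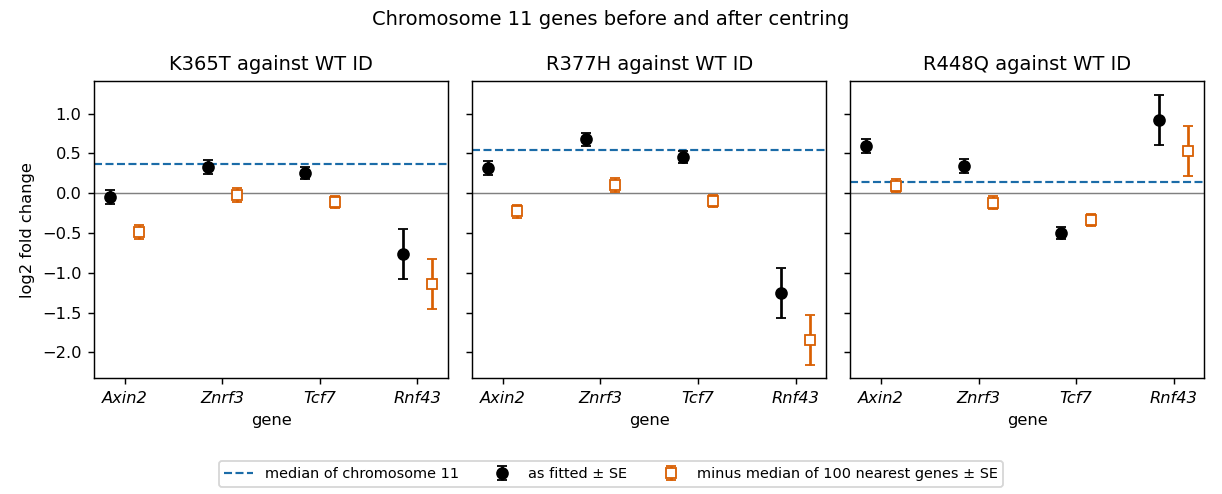
Log2 fold change against WT ID (± SE) of the 4 chromosome 11 genes in K365T, R377H and R448Q, as fitted (black circles) and after subtracting the median of the 100 nearest genes (orange squares). The dashed blue line is the median of chromosome 11 (0.37, 0.54 and 0.14), and after centring, Tcf7 and Axin2 in R377H move from above 0 to below it.

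R377C and R377H replace the same arginine and were compared directly. The 9 genes gave 5 calls, 2 higher and 3 lower in R377C, where 19.0% of all tested genes were called. Rnf43 was 138 and 114 normalized counts in R377C ID against 55.4 and 39.1 in R377H ID (log2 difference 1.41 ± 0.31, limma adjusted p = 0.00329), but its adjusted p was 0.0631 without R377H replicate 2. Cdx1 was 5152 and 5271 against 3213 and 3447 (0.65 ± 0.11, adjusted p = 0.0002). Both genes were higher in R377C with no overlap. Znrf3 (−0.74 ± 0.09), Axin2 (−0.46 ± 0.09) and Tcf7 (−0.39 ± 0.07) were lower in R377C, and the chromosome 11 median in this comparison was −0.49. Centred on it they were −0.25, 0.03 and 0.10, none of them called. Sp5 (0.26 ± 0.24), Dkk1 (0.18 ± 0.23), Lef1 (0.52 ± 0.30) and Nkd1 (0.46 ± 0.17) did not pass.

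Q418R was compared with the mean of the other 8 mutant lines, a comparison chosen after its values were seen. Its SE and p-values rest on the spread between libraries within groups, and the spread among the 8 lines does not enter them. Sp5 was higher by 2.41 ± 0.18 on the log2 scale (limma adjusted p = 8.78e-09), Lef1 by 2.35 ± 0.22 (adjusted p = 1.30e-07), Dkk1 by 1.92 ± 0.17 (adjusted p = 7.30e-08) and Axin2 by 0.56 ± 0.07 (adjusted p = 1.71e-06). Nkd1 was lower by −1.01 ± 0.13 and Rnf43 by −0.74 ± 0.24. In this comparison 6 of the 9 were called, beside 38.4% of all tested genes. The Q418R libraries did not overlap those of the other 8 lines in Sp5, Lef1, Dkk1 and Nkd1, and they did in Axin2 and Rnf43. Of the 6 calls only that of Rnf43 was lost when 1 library was left out, at −0.34 and an adjusted p of 0.428 without Q418R replicate 2. It was also lost under both centrings (adjusted p = 0.0619 and 0.0618). Summed mesendoderm markers in Q418R ID were 15.0 and 15.8 TPM against 31.4 to 36.1 TPM in WT ID, and summed neural markers 28.1 to 30.1 TPM against 53.8 to 55.2 TPM. Of 4 mesendoderm markers tested, 1 was called higher and 2 lower than in WT ID, and of 4 neural markers 3 were called lower. Of all tested genes 25.0% were called there. Primitive endoderm sums overlapped WT ID, at 9.76 to 10.5 TPM against 9.04 to 12.1 TPM. So did trophectoderm sums, at 117 to 129 TPM against 124 to 140 TPM. Embryonic stem cell marker sums were lower, at 6400 to 6621 TPM against 7129 to 7331 TPM. The part of cell types in the Wnt values was not tested.

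The mean of the 9 mutant lines was also set against WT IAA, again after the values were seen. Here too the spread among lines does not enter the SE or the p-values. Sp5 was lower by −1.43 ± 0.18 (limma adjusted p = 6.00e-06) and Dkk1 by −2.00 ± 0.17 (adjusted p = 5.88e-08), while Rnf43 was higher by 0.83 ± 0.23 and Nkd1 by 0.39 ± 0.12. In this comparison 4 of the 9 were called, beside 36.0% of all tested genes. The Sp5 and Dkk1 calls held in every setting tried. Rnf43 was lost without WT IAA replicate 1 (adjusted p = 0.324), and Nkd1 without either WT IAA library (0.119 and 0.146). Nkd1 was also lost with TPM (0.0752), quantile normalization (0.0752) and centring on the chromosome (0.152) or the nearest genes (0.0872). The lines were not alike in this comparison: Sp5 in Q418R ID, at 3994 and 4375 normalized counts, lay above WT IAA, at 2433 and 2679.

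Of the 90 other pathway genes tested, 81 (90.0%) were called in at least 1 of the 10 comparisons with WT ID and 9 in none. Of all 18713 tested genes, 75.7% were called at least once. The number called per comparison ran from 7 in S354F (4 higher, 3 lower) and 11 in R377C (6 and 5) to 37 in K365T (25 and 12) and 49 in R448Q (30 and 19). Shares were 7.78% of the 90 in S354F, 12.2% in R377C, 41.1% in K365T and 54.4% in R448Q. In the same comparisons the share of all tested genes ran from 8.09% in R377C to 45.8% in R448Q. Ctnnb1, which encodes beta-catenin, was called in no comparison with WT ID and had log2 fold changes of −0.22 to 0.19. Pathway genes below are named by a rule that took those called most often in each list, and alternatives were not run for them.

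Of 11 Wnt ligand genes tested, 7 were called higher and none lower in R339Q, beside 21.5% of all tested genes called. In Q418R 2 were called, both lower, beside 25.0% of all tested genes, and in R377C none was called, beside 8.09%. In R448Q 3 were called higher and 4 lower, beside 45.8%, and in R377H 2 higher and 3 lower, beside 25.1%. Wnt8a, a ligand of the gastrulating embryo, was at 1.56 TPM in WT ID and 6.25 TPM in WT IAA (log2 fold change 1.95 ± 0.30) and rose in R339Q (1.74 ± 0.30) while falling in R377H by 1.13 (SE 0.30). Wnt5b, a noncanonical ligand, rose in R339Q (1.09 ± 0.15) and fell in Q418R by 1.16 (SE 0.15). Wnt7b fell in R448Q by 2.38 (SE 0.31) and rose in R342C (1.76 ± 0.31). Ligand calls were only higher in WT IAA, R339Q, R342C, S354F, K365T and H455R, and lower calls occurred in R377H, Q418R and R448Q.

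Of the secretion genes, Notum, a carboxylesterase that removes the lipid from Wnt ligands, was called higher in 7 comparisons. Its values were 1.70 ± 0.18 in R448Q and 1.34 ± 0.18 in K365T, and it lies on chromosome 11. Wls, the carrier that takes Wnt ligands to the cell surface, rose in H455R (2.02 ± 0.27) and fell in R377H by 1.02 (SE 0.27). Porcn, the acyltransferase of Wnt ligands, was called lower in 3 lines, with −1.14 ± 0.24 in K365T.

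Among 16 receptor genes tested, Lgr6, a receptor for R-spondins, was called higher in all 10 comparisons, from 0.56 ± 0.19 in R448Q to 1.72 ± 0.19 in H455R. In mean TPM it was 0.418 in WT UN, 0.497 in WT ID and 1.38 in WT IAA, so its level stayed low. Ror2, a receptor for noncanonical Wnt signals, fell in WT IAA, K365T, R377H and R448Q, by 0.79 (SE 0.11) in R448Q. Fzd4, a Frizzled receptor, fell in WT IAA by 0.90 (SE 0.17) and in Q418R by 0.56 (SE 0.17) and rose in R342C, K365T and R377H.

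The 3 Sfrp genes named among secreted modulators encode soluble decoys with a Frizzled-like domain. Sfrp4 was called higher in 6 lines, with 1.75 ± 0.25 in R342C. Sfrp1, far more abundant at 222 TPM in WT ID, was called lower in 6 comparisons and higher in Q418R (0.49 ± 0.06) and R448Q (0.18 ± 0.06). Sfrp2 was 65.3 TPM in WT ID and 106 TPM in Q418R ID (0.79 ± 0.10) and was called higher in 5 lines and lower in H455R.

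Among the signal relay genes the Dact family, which encodes Dishevelled-binding proteins, was called only lower. Dact2 fell in 9 of 10 comparisons, by 1.47 (SE 0.09) in R448Q, and in Q418R its value was −0.12 ± 0.09. Dact3 fell in 4 lines, by 2.21 (SE 0.16) in R448Q, and Dact1 in 4 lines. Of the nuclear partners Tle3, a Groucho corepressor, fell in 7 comparisons, by 1.34 (SE 0.12) in R448Q. Tle4, of the same family, rose in 7 and Tcf7l2, a TCF factor, in 5. Tcf7l2 in WT IAA was 0.60 ± 0.10.

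Of 12 other target genes tested, 6 were called higher and 2 lower in Q418R, beside 25.0% of all tested genes called. In R448Q 6 were called higher and 1 lower, beside 45.8% of all tested genes. R377H had 1 higher and 3 lower, beside 25.1%, and S354F had none called, beside 9.80%. Ccnd1, which encodes cyclin D1, rose in 6 lines, by 1.72 ± 0.10 in R448Q, 1.64 ± 0.10 in K365T and 1.19 ± 0.10 in Q418R, and in WT IAA its value was 0.01 ± 0.10. Cdx2, a caudal factor like Cdx1, rose in R448Q (1.96 ± 0.31), Q418R (1.04 ± 0.31) and H455R (0.92 ± 0.31) and fell in R377H and R342C by 2.50 (SE 0.31) and 1.26 (SE 0.31). Mixl1, a homeobox gene of mesendoderm, rose in 5 comparisons, by 1.36 ± 0.25 in R448Q.

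The naive pluripotency genes that Tcf7l1 represses did not move as 1 group. Nanog was called higher in 7 comparisons, at most by 0.66 ± 0.08 in K365T, and Klf2 in 5 lines. Nr0b1 was called lower in 7, with −1.17 ± 0.10 in H455R, and in Q418R it was 0.08 ± 0.10.

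Likeness to other genes was described by Pearson's r over the 11 treated group means, among 12375 genes, which share libraries and are not independent. For Sp5 the closest were Pdss1 (0.93), Naa35 (0.93) and Plekhf2 (0.92), and for Dkk1 they were Wipi2 (0.94), Stambpl1 (0.94) and Tmem253 (0.93). For Nkd1 they were Eva1a (0.94), Galnt3 (0.89) and Ccl25 (0.87). For Znrf3 they were Appbp2, Mbtd1 and Ube2g1, each at 0.95 and all on chromosome 11, as is Znrf3. Pdss1 shares chromosome 2 with Sp5, Stambpl1 chromosome 19 with Dkk1 and Ccl25 chromosome 8 with Nkd1. Among the 9 genes themselves, r ran from −0.76 (Tcf7 with Rnf43, and Cdx1 with Znrf3) to 0.75 (Axin2 with Znrf3, and Sp5 with Dkk1). Between these, it was 0.73 for Sp5 with Lef1, 0.72 for Axin2 with Lef1 and 0.69 for Cdx1 with Rnf43. It was −0.66 for Rnf43 with Znrf3, −0.53 for Lef1 with Tcf7 and −0.52 for Sp5 with Nkd1.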

How the data were processed

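Total RNA was sequenced from 24 libraries, 2 for each of 12 groups. Trim Galore, STAR, DESeq2 and mm10 are named in the submitters' processing notes. Not given in the sources used here are tool versions, annotation, counter and strand option, so genes overlapping on opposite strands are uncertain. The deposited normalized counts are a signal in which reads were divided by 1 factor per library: all values were whole multiples of 1 step within 0.001, so reads were recovered. The authors also deposited TPM. The untreated libraries were scaled in a separate table and were compared mainly by TPM, without a test. Ratios of edgeR-scaled recovered reads and, for Znrf3, normalized counts are given beside TPM. Tables held 0 columns from outside the series. Of 55291 symbols 53186 were matched once in GENCODE M21.

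limma 3.58.1 (R 4.3.3; lmFit, eBayes with trend) was fitted to log2(normalized count + 1) of 22 libraries, 1 coefficient per group, for 18713 genes with a mean of at least 10. Residual degrees of freedom were 11 (prior 8.13). Two-sided p-values were adjusted by Benjamini-Hochberg within each comparison, and genes under 0.05 were called. Fold changes without "log2" in the treated libraries are the fitted log2 fold changes put back on the linear scale. ± after a log2 value is its SE. Untreated cells were compared by mean TPM + 0.1, with mean TPM + 1 and edgeR-scaled recovered reads as alternatives. Replicate libraries were checked for duplicate deposits: they differed beyond counting noise (chi-square 6.4 to 38.9 per gene), which does not show that they are separate cultures.

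Alternatives were edgeR 4.0.16 and DESeq2 1.42.0 on recovered reads, TPM, other pseudocount, filter, scaling and fit, centring by chromosome or by the 100 nearest genes, a replicate block and leaving out each library. The fits were tested on simulated data. The 9 genes, the pathway lists and the markers were chosen with earlier results of these data known. Named pathway genes are the up to 3 of each list called in most of the 10 comparisons with WT ID (mean of at least 50).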

Additional observations from a re-analysis of the deposited data

Results flagged for a closer look

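In 5 genes the R377C and R377H lines, with substitutions of 1 residue, differed in the direct limma comparison (R377C minus R377H, log2): Tcf7 −0.39, Axin2 −0.46, Cdx1 0.65, Rnf43 1.41 and Znrf3 −0.74. The substitution and the line cannot be told apart. Tcf7, Axin2 and Znrf3 lie on chromosome 11, whose median in this comparison was −0.49. Centred on it they were 0.10, 0.03 and −0.25, none of them called.

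All 9 genes differed among the 9 mutant lines by limma's F test. The adjusted p was 1.07e-07 for Lef1, 1.07e-07 for Tcf7, 3.80e-08 for Sp5, 3.73e-09 for Dkk1, 1.74e-08 for Axin2, 3.67e-06 for Nkd1, 7.96e-06 for Cdx1, 1.68e-05 for Rnf43 and 9.77e-08 for Znrf3. Of all tested genes, 76.0% were called by the same test.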

How the results depend on the processing

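Of 47 called values among 99, 25 kept their call in every setting. Centring on the chromosome median or on the 100 nearest genes turned the sign of Tcf7 (−0.11 and −0.11) and Znrf3 (−0.041 and −0.024) in K365T, of Tcf7 (−0.083 and −0.096) and Axin2 (−0.23 and −0.23) in R377H, and of Tcf7 (0.096 and 0.14) and Axin2 (0.028 and 0.039) in R377C minus R377H. It turned Znrf3 in R448Q (−0.12, nearest genes), Tcf7 in Q418R against the other 8 lines (0.15, chromosome, adjusted p = 0.0456) and Axin2 in the mutants against WT IAA (−0.20, nearest genes, adjusted p = 0.0234). Called genes then numbered 4 in R377H and 2 in R377C minus R377H under both, and 4 in R448Q with nearest genes. With TPM 1 was called in WT IAA and 1 in R339Q, and with no filter 1 in R339Q and 1 in H455R. With only the groups compared in the fit 5 were called in S354F, 2 in R377C and 5 in H455R; edgeR and DESeq2 each called 4 in H455R. The cause was not tested, except that centring subtracts the shift of the chromosome.

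Leaving out 1 library gave 1 to 3 called genes in WT IAA, 0 to 1 in R339Q, 4 to 5 in R342C, 3 in S354F, 4 to 6 in K365T, 1 to 2 in R377C, 4 to 7 in R377H, 4 to 5 in Q418R, 5 to 7 in R448Q, 1 to 2 in H455R and 4 to 5 in R377C minus R377H. It gave 5 to 7 in Q418R against the other lines and 2 to 4 in the mutants against WT IAA. Where this left 1 library in a group, it was assumed to vary like the others.

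Same-numbered replicates did not deviate together: of 55 pairs of groups 10 had r over 0.1, with a median of 0.02. With the replicate block the called genes numbered 3 in WT IAA, 3, 5, 3, 6, 1, 7, 5, 7 and 2 in R339Q to H455R and 5 in R377C minus R377H, as without it. Depth limits untreated Dkk1, which rests on 13 and 7 reads.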
